A study of Mus musculus with 4 samples.

Results

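Ms4a7 macrophages of the mouse digit were defined here by the unique molecular identifiers (UMIs, each standing for 1 captured RNA molecule) of a few marker genes, and 3044 of 50625 deposited cell barcodes met the definition. A barcode needed at least 500 genes, at least 1000 UMIs, at most 10% mitochondrial UMIs, no UMI of the endothelial gene Cdh5 and at least 3 UMIs of the macrophage genes Csf1r, Lyz2 and C1qb together. The first 3 conditions left 39266 cells, and all of them together 9859 myeloid cells. A myeloid cell was a member when the UMIs of Ms4a7, Ms4a14 and Apoc2 summed to at least 3 and exceeded each of 4 other marker sums, which stand for resident-like macrophages (Lyve1, Folr2, Cbr2, F13a1), Acp5 and Clec5a cells (Acp5, Clec5a, Matk), Ear2, Plac8 and Ly6c2 cells (with Adgre4), and dendritic cells (Cd209a, Flt3, Klrb1b). The same rule, turned to each of those sums, gave 2489 resident-like macrophages, 884 Acp5 and Clec5a cells, 965 Ear2, Plac8 and Ly6c2 cells and 347 dendritic cells.

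The series held 4 single-cell libraries from wild-type FVB/NJ mice aged 8 weeks, all taken at the second phalanx (P2) of the digit, where amputation heals by fibrosis and not by regrowth. The groups were an unamputated homeostatic digit and fibrosing digits collected 12, 17 and 28 days post-amputation (dpa), with 1 library in each group, and no agent other than the amputation is given. Dissected tissue went through trypsin, collagenase I and red cell lysis, and cells that excluded propidium iodide were sorted as live before 10x Chromium 3′ v3 library construction. The labels describe the animals as pooled, of both sexes, without a number per pool.

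Ms4a7 encodes a tetraspanning membrane protein of the MS4A family and is known as a marker of macrophages, including those that derive from recruited monocytes. Macrophages of connective tissue are commonly divided into resident cells that carry Lyve1, Folr2 and scavenger receptors, and cells rich in MHC class II, the complex that presents antigen to helper T cells. In wounds and scars, macrophages take up debris and lipid through lysosomes, release chemokines that call in other leukocytes, and can fuse into osteoclasts where bone is remodelled.

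Members numbered 1140 in the unamputated, 855 in the 12 dpa, 690 in the 17 dpa and 359 in the 28 dpa library. Their median depth was 11342, 8696, 9092.5 and 6819 UMIs per cell in that order, which is the order of all values given by library below. The 4 libraries shared 19 to 87 barcodes per pair, but no pair shared a member. A caller of doublets (droplets with 2 cells) marked 8.68%, 7.25%, 11.2% and 15.9% of members, and they were kept in the main results. Against the label of pooled sexes, Xist, the RNA of the inactive X chromosome, was at 392 CPM (UMIs of a gene scaled to 1000000 UMIs of the class and library) in the members of the 12 dpa library and at most 0.137 CPM in the others, while Uty, Kdm5d, Eif2s3y and Ddx3y, which lie on the Y chromosome, summed to 0.231 CPM there and to 213 to 296 CPM elsewhere. Every comparison with the 12 dpa library is thus also one between sexes, and sex and time cannot be told apart.

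The definition rested almost wholly on Ms4a7 (GENCODE M21 annotation of GRCm38, chromosome 19, 11321039 to 11336146, minus strand). It supplied 96.1% to 97.5% of the marker sum, and its level in members was 2023, 2765, 1955 and 1285 CPM. Ms4a14, a neighbour in the same gene cluster, was at 55.4, 39.6, 35.7 and 36.4 CPM, and Apoc2, an apolipoprotein that activates lipoprotein lipase, at 27.4, 51.5, 13.7 and 14.9 CPM. Apoc2 was found in 23.5%, 30.6%, 11.6% and 8.64% of members. These levels chose the cells and are given as a description.

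The promoter of the gene that defines these cells is printed for reference from RefSeq (GRCm38.p6, chr19:11336097-11336396, minus strand, 250 bases before to 50 bases after an annotated start, 5′ to 3′). A search of both strands for the letters GAGGAAGT, which occur in binding sites of the macrophage factor PU.1, for the lysosomal-gene motifs TCACGTGA and TCATGTGA, and for TGCTGAC, part of the site of MAF factors, found none in this window or in that of the other start at chr19:11334646-11334945.
Ms4a7: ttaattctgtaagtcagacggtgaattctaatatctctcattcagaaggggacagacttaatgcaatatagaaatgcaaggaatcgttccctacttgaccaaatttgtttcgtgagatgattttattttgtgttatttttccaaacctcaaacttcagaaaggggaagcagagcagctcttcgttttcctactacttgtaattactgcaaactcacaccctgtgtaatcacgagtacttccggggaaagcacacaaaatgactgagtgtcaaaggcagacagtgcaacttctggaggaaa

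Ms4a7 was not private to these cells. In resident-like macrophages it was at 418, 476, 615 and 365 CPM, and in cells with no UMI of Csf1r, Lyz2 or C1qb at 2.30 to 2.64 CPM. After thinning every cell to 2000 UMIs, 92.0%, 95.5%, 92.0% and 89.8% of members held an Ms4a7 UMI, against 42.4%, 48.6%, 70.2% and 48.5% of resident-like macrophages and 0.227%, 0 of 415, 1.26% and 0.763% of keratin-high cells without myeloid UMIs, which should lack the gene. The 0 allows up to 0.723% of cells with a UMI after thinning, which is no limit on cells that express the gene. Before thinning, the Ms4a7 shares were 99.4% to 100% of members and 66.7% to 92.2% of resident-like macrophages.

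The edges of the definition held a larger part of the members at 28 dpa than in the other libraries. The median marker sum of members was 23, 25, 16 and 9 UMIs, and 29, 15, 24 and 29 members sat at the minimum of 3. A minimum of 5 would leave 302 of the 359 members at 28 dpa. Just outside, 15, 14, 18 and 29 cells had a sum of 2 that was above the others, and 42, 13, 27 and 38 cells were tied with another sum. A larger set of 296, 113, 503 and 830 cells had at least 3 marker UMIs but more of another sum. Members themselves often carried other markers, with 34.8%, 25.3%, 39.7% and 33.1% holding at least 3 UMIs of the resident sum and 47.1%, 42.0%, 30.4% and 22.0% at least 3 of the Acp5 and Clec5a sum. At least 3 UMIs of the Ear2, Plac8 and Ly6c2 sum were found in at most 2.11% of members.

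Macrophage markers that the rule did not use are given as a description and do not test the label. UMIs of Csf1r, Lyz2 and C1qb were required in members and absent by choice from the cells without myeloid UMIs. Genes expressed together with Csf1r, Lyz2 or C1qb were free to follow that choice. Of the markers outside the rule, C1qa, C1qc, Cd68, Adgre1, Fcgr1 and Aif1 were detected in members of each library. Cd68, a lysosomal glycoprotein of macrophages, was at 585, 667, 577 and 487 CPM in members and at most 3.72 CPM in cells without myeloid UMIs. Adgre1, which encodes F4/80, was at 244, 163, 230.3 and 167 CPM and at most 1.45 CPM, and C1qa at 1309, 1653, 1816 and 1817 CPM and at most 9.67 CPM. T and NK cell markers stayed at or below 5.62 CPM in all 4 libraries.

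Members made up 34.8% of myeloid cells in the unamputated library (exact Clopper-Pearson 95% interval 33.2 to 36.5). At 12 dpa the share was 60.4% (57.8 to 62.9). It was 30.6% at 17 dpa (28.7 to 32.6) and 12.3% at 28 dpa (11.1 to 13.5). Of all cells that passed the quality filter they were 9.54%, 12.3%, 7.94% and 3.07%. The intervals of the 12, 17 and 28 dpa libraries did not overlap those of the unamputated library in either denominator, but with a stricter cell filter the unamputated and 17 dpa libraries had 32.6% and 32.5% of myeloid cells. They cover counting error only, and with 1 library in each group there is no replicate check. Thinning to 2000 UMIs gave 28.0%, 54.6%, 24.6% and 8.35% of myeloid cells, in the same order.

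The size of the drop at 28 dpa, and the order of the unamputated and 17 dpa libraries, rested on the condition that the Ms4a7 sum exceed the others. Counting every myeloid cell with a sum of at least 3, whatever its other sums, gave 45.2%, 69.3%, 54.2% and 42.0% of myeloid cells and 12.4%, 14.1%, 14.0% and 10.5% of all filtered cells. The 28 dpa library was still the lowest, but its interval of myeloid cells (40.2 to 43.9) overlapped that of the unamputated library (43.5 to 46.9). The 17 dpa library was above the unamputated one in both denominators. Members were 77.1%, 87.2%, 56.6% and 29.3% of this wider set. Resident-like macrophages, with which the members competed, numbered 258 and 37 in the unamputated and 12 dpa libraries and 554 and 1640 at 17 and 28 dpa. Only 37 such cells stood behind every value of the 12 dpa library for that class.

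**Figure D1:**
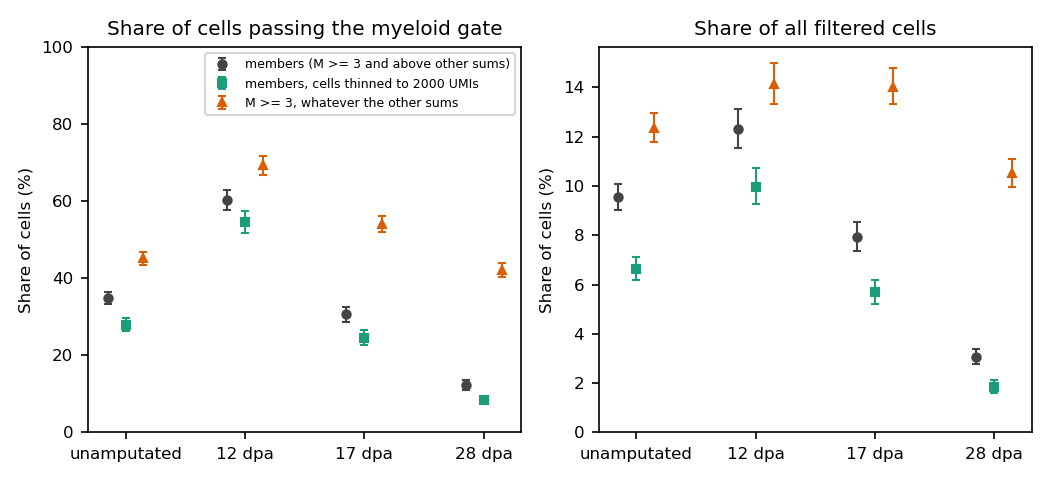
Share of Ms4a7 macrophages by library, as a percent of myeloid cells (left) and of all filtered cells (right), with exact 95% intervals of counting error. The members (circles) and the members after thinning (squares) are highest at 12 dpa and lowest at 28 dpa, whereas cells with at least 3 marker UMIs whatever their other sums (triangles) change less, from 42.0% to 69.3% of myeloid cells.

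The next question was what sets members apart from resident-like macrophages in genes the rule did not use. UMIs were summed per class and library, and classes were compared with edgeR's quasi-likelihood test with the library as a block, so that a call is on the mean difference within libraries. Gpnmb, Cd72, Fabp5 and Cadm1 were among the genes higher in members, and Cd163, Ccl24 and Plekhg5 among those lower. By list, 5 of 18 lysosomal genes were higher and 10 of 19 resident-programme genes lower. Of 12368 genes tested, 107 were higher in members (0.865%) and 121 lower (0.978%) at an adjusted p under 0.05. The classes were drawn on marker genes in the same cells, so genes known to be expressed together with Lyve1 or Folr2 were free to follow them. The libraries differed in what they added: without the 17 dpa library 3 genes were higher and 6 lower, without the unamputated library 23 and 24, without the 28 dpa library 36 and 40, and without the 12 dpa library 49 and 83. Of the 20 genes named, 3 (Cadm1, Ccl6, Dnm1) were called whichever library was left out. Without the library block 14 genes were higher and 15 lower.

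Gpnmb, a transmembrane glycoprotein of lysosome-rich macrophages and osteoclasts, was at 178, 163, 97.7 and 145 CPM in members and 22.6, 43.8, 23.1 and 15.97 CPM in resident-like macrophages. Its log2 fold change was 2.80 ± 0.47 (SE, 4 libraries per class, edgeR, adjusted p = 0.008). Each SE here and below was derived from the test, as the absolute log2 fold change over the square root of its F statistic. Fabp5, which carries fatty acids inside the cell, was at 1633, 2624, 1076 and 1193 CPM against 422, 351, 299.7 and 245 CPM (log2 fold change 2.32 ± 0.41, edgeR, adjusted p = 0.0089). The ranges of the 2 classes did not overlap for Fabp5 or Gpnmb.

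Cd72, an inhibitory receptor of B cells and macrophages, was at 86.4, 99.4, 76.6 and 53.2 CPM in members and 7.44, 35.1, 6.92 and 14.2 CPM in resident-like macrophages (log2 fold change 2.67 ± 0.39, edgeR, adjusted p = 0.0031). Cadm1, an adhesion molecule of the immunoglobulin superfamily, was at 450.5, 302, 223 and 211.6 CPM against 102, 102, 56.9 and 50.3 CPM (log2 fold change 2.09 ± 0.28, adjusted p = 0.0013). The other 6 named genes that rose were Atp6v0d2 (a subunit of the proton pump that acidifies lysosomes, 1.81), Lgals3bp (a secreted partner of galectin-3, 1.58), Anpep (aminopeptidase N, 1.56), Bcl2a1b (a survival factor with near-identical copies, so its reads are uncertain, 1.53), Cd300c2 (an immunoglobulin-like receptor, 1.52) and Ctsl (cathepsin L, 1.40), with log2 fold changes in brackets.

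Lysosomal proteases accounted for the 5 of 18 lysosomal genes tested that were called, all higher in members. They were Ctsd, Ctsh, Ctsk, Ctsl and Ctsz, and the median log2 fold change of the list was 0.35 against -0.01 over all genes tested. The calls rested on having all 4 libraries: 1 of the list was higher without the 12 dpa library (Ctsz), 2 without the 28 dpa library (Ctsd, Ctsk), and 0 without the 17 dpa or the unamputated library, at median log2 fold changes of 0.26 to 0.44. Ctsd, the aspartic protease cathepsin D, was at 1005, 1266, 993 and 822 CPM against 492, 547, 737 and 490.1 CPM (log2 fold change 0.95 ± 0.21, edgeR, adjusted p = 0.0263). Ctsk, the collagen-degrading cathepsin of osteoclasts, was at 406, 407, 699 and 949 CPM against 135, 193, 212.1 and 542 CPM (1.39 ± 0.24, adjusted p = 0.00881). Ctsk was also abundant outside the myeloid cells, at 289, 431, 566 and 565 CPM in cells without myeloid UMIs, and the part this played was not tested. Ctsb, cathepsin B, was not called, at 2893, 3051, 2757 and 2121 CPM against 2061, 1709.7, 3287 and 2042 CPM.

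Promoters of these genes were read from RefSeq (GRCm38.p6) and searched for the same 4 motifs. Of the 20 genes named against resident-like macrophages, 15 had a promoter in the table and 4 held a match (Bcl2a1b, Cd72, Lgals3bp, Rasgrp3), and of the 5 cathepsins 4 had one and 1 held a match (Ctsd). Among 32851 promoter windows of the same length, GAGGAAGT or its reverse complement ACTTCCTC occurred in 3.20%, the palindrome TCACGTGA in 0.974%, TCATGTGA or TCACATGA in 0.986% and TGCTGAC or GTCAGCA in 4.67%. These shares are for 1 motif and 1 window at a time, whereas the 15 genes had 20 windows searched for 4 motifs. The promoters of Cd72 (chr4:43454577-43454876, minus strand) and Ctsd (chr7:142387778-142388077, minus strand) are shown because these genes were among those higher in members and held a match. Capitals mark ACTTCCTC at base 202 of Cd72 and TCACGTGA at base 152 of Ctsd, counted from 1 at the 5′ end of each window, and each window held this match alone. A match is a description of the letters and not a site.
Cd72: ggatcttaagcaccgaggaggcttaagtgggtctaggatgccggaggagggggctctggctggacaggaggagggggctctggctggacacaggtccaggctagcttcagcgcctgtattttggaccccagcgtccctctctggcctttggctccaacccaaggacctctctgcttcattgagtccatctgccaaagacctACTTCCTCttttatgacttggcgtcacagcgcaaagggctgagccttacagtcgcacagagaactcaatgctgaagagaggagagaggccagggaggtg
Ctsd: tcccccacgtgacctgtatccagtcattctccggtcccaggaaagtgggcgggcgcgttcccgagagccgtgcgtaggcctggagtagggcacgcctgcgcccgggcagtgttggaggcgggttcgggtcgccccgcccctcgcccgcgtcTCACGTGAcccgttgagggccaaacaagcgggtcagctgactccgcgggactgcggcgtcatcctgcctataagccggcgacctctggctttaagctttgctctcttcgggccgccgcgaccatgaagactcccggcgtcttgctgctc

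Genes of the resident programme were among those lower in members. Of 19 genes of that list tested, none of them in the rule, 10 were lower (Cd163, Timd4, Fcna, Ltc4s, Ccl24, Clec10a, Cd209b, Vsig4, Wwp1, Ednrb), and the list had a median log2 fold change of -1.13. Cd163, the scavenger receptor for haemoglobin bound to haptoglobin, was at 2.53, 1.39, 6.52 and 12.2 CPM in members and 61.5, 2.92, 147 and 70.7 CPM in resident-like macrophages (log2 fold change -3.75 ± 0.61, edgeR, adjusted p = 0.00591). The 12 dpa value of Cd163 in resident-like macrophages was low, so the ranges of the classes overlapped, and that library held 37 of these cells. Without the 12 dpa library 9 of the list were lower, and without the 17 dpa, 28 dpa or unamputated library 2, 4 and 4, at median log2 fold changes of -1.22 to -0.999 over the 4 fits. Vsig4, a complement receptor of resident macrophages, was at 2.05, 0.924, 3.33 and 1.65 CPM against 31.7, 2.92, 96.1 and 51.8 CPM (-4.19 ± 0.45, adjusted p = 5.95e-04), and Timd4, a receptor for phosphatidylserine on dying cells, at 2.53, 1.73, 2.91 and 4.30 CPM against 17.1, 5.85, 35.8 and 24.8 CPM (-3.14 ± 0.46, adjusted p = 0.00319).

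Of 22 CC and CXC chemokines tested, Ccl6, Ccl9 and Ccl24 were the ones called, all lower in members, where 0.978% of all genes tested were lower. The list's lower calls numbered 3 without the 12 dpa library, 2 without the 17 dpa or the unamputated library and 1 (Ccl6) without the 28 dpa library. Ccl6 was at 67.4, 70.3, 110.3 and 189 CPM in members and 470.3, 281, 684 and 693 CPM in resident-like macrophages (log2 fold change -2.23 ± 0.25, edgeR, adjusted p = 5.95e-04). Ccl24, an attractant of eosinophils, was at 7.11, 5.54, 27.1 and 50.9 CPM against 53.05, 35.1, 279 and 266 CPM (-2.79 ± 0.43, adjusted p = 0.00423). The ranges of the classes did not overlap for Ccl6, whereas for Ccl24 the members of the 28 dpa library were above the resident-like macrophages of the 12 dpa library. Other named genes that fell were Plekhg5, a guanine nucleotide exchange factor (-2.65), Ltc4s, which makes leukotriene C4 (-2.04), the histone deacetylase Hdac9 (-1.87), the Ras exchange factor Rasgrp3 (-1.79), Dnm1, a dynamin of endocytosis (-1.75), and Reps2, an endocytic adaptor (-1.62).

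**Figure D2:**
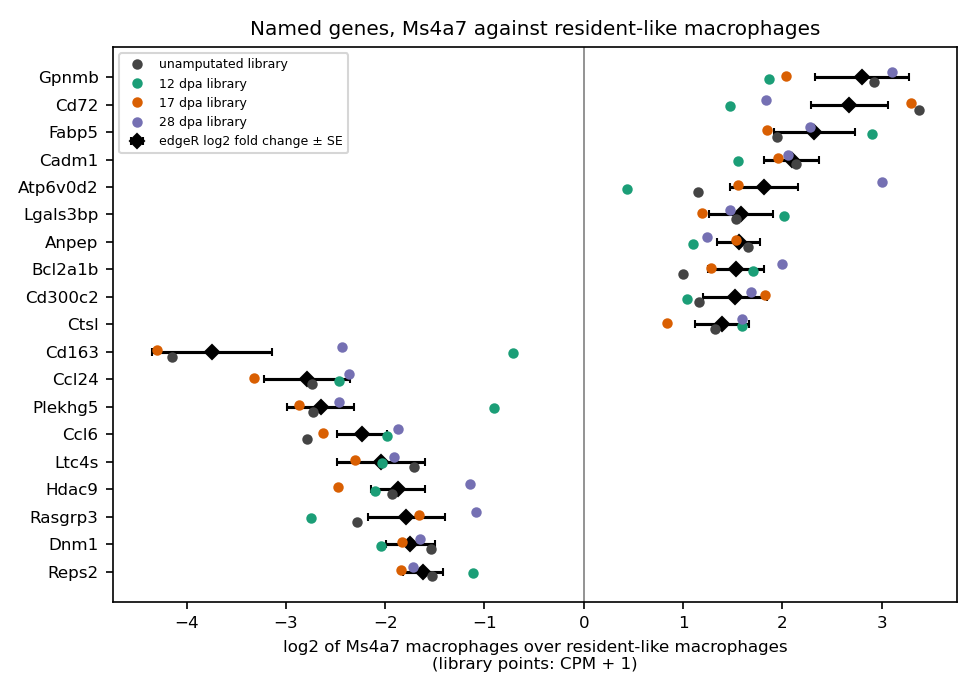
Named genes of the comparison with resident-like macrophages, as log2 of members over resident-like macrophages. Diamonds are edgeR log2 fold changes with SE, and circles are the 4 libraries (log2 of CPM plus 1). The genes were chosen for having 1 direction in all 4 libraries, so that the circles share a side is no finding. For Cd163 and Plekhg5 the 12 dpa circle stands nearest to 0.

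Several genes often used to name macrophage states did not pass this test. Apoe, a carrier of lipid between cells, was at 9173, 14295, 8762 and 6677 CPM in members and 5087, 2887, 6992 and 2901 CPM in resident-like macrophages, higher in each library but with adjusted p = 0.382 (edgeR). Trem2, a lipid-sensing receptor, was at 662, 792, 844 and 895 CPM against 387, 526, 665 and 713 CPM (adjusted p = 0.591), and the mannose receptor Mrc1 at 807, 451, 961 and 656 CPM against 1449, 605, 2257 and 1393 CPM (adjusted p = 0.576). Among the 22 lipid-handling genes tested, Gpnmb, Fabp5 and the sterol sensor Nr1h3 were higher and the fatty acid transporter Cd36 was lower, at 294, 162, 415 and 836 CPM against 752, 734, 1017 and 1265 CPM. None of 13 genes of MHC class II presentation was called by edgeR after adjustment. H2-Eb1, H2-DMb1 and H2-DMb2 had an unadjusted p under 0.05, and DESeq2 called 1 of them (H2-DMb2). None of 5 MS4A family genes was called or had an unadjusted p under 0.05, by edgeR, and DESeq2 called 0. Among 4 Fc gamma receptors edgeR called 0, with 2 at an unadjusted p under 0.05 (Fcgr2b, Fcgr4), and DESeq2 called Fcgr4. A gene that misses the threshold is not shown to be equal in both classes.

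Against Acp5 and Clec5a cells, all 5 MS4A family genes tested were higher in members and 9 of 10 osteoclast genes lower. Genes expressed together with the markers that drew the 2 classes were free to follow them. These list counts therefore describe the classes and are no separate evidence. Of 17 complement genes 7 were higher and 2 lower (the integrin subunits Itgax and Itgb2), and of 17 scavenger and efferocytosis genes 7 were higher and 2 lower (the integrin subunit Itgb3 and Mfge8, a bridge to apoptotic cells), with 8 not called in either list. Of 12368 genes, 949 were higher (7.67%) and 970 lower (7.84%), and without the 17 dpa library these were 418 and 317, without the unamputated library 463 and 398 and without the 28 dpa library 678 and 621. A fit of the 2 classes alone gave 1924 and 2018, and one without the library block 434 and 345. The 12 named genes stayed called whichever library was left out. Over the fits that left out 1 library, 9 osteoclast genes were lower in each and 6 complement genes higher in each, 3 to 4 MS4A genes were higher of 5 or 6 tested, 3 to 7 scavenger genes, 7 to 10 resident-programme genes and 1 to 3 Fc gamma receptors. Itga9, an integrin subunit, was at 139.7, 119, 93.8 and 67.1 CPM in members and 8.73, 6.15, 8.03 and 3.29 CPM in Acp5 and Clec5a cells (log2 fold change 3.92 ± 0.27, edgeR, adjusted p = 1.25e-07). C1qa, a chain of the first complement component, was at 1309, 1653, 1816 and 1817 CPM against 83.4, 105, 149.8 and 198 CPM (3.71 ± 0.43, adjusted p = 4.68e-05). With C1qc, Gpr34 (a receptor for lysophosphatidylserine), Selenop (the selenium carrier) and Mrc1, these genes rose by log2 fold changes of 3.60 to 3.92. The MS4A family genes ranged from 1.63 for Ms4a6d to 5.04 for Ms4a4a, and 3 of 4 Fc gamma receptors (Fcgr1, Fcgr3, Fcgr4) and 9 of 19 resident-programme genes were higher.

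The osteoclast list moved the other way, with 9 of 10 tested genes lower in members and a median log2 fold change of -2.60 against -0.01 over all genes. Ctsk was at 406, 407, 699 and 949 CPM in members and 3760.0, 2824, 3107 and 4432 CPM in Acp5 and Clec5a cells, and the fusion genes Ocstamp and Dcstamp had log2 fold changes of -4.52 and -3.19. Mmp9, a gelatinase of osteoclasts, was at 3.97, 1.50, 3.47 and 7.60 CPM against 394, 290.2, 243 and 451 CPM (-6.89 ± 0.93, edgeR, adjusted p = 1.60e-04). Mt3, a metallothionein, was at 0.137, 0.346, 0.139 and 0.331 CPM against 143, 78.4, 22.7 and 82.1 CPM (edgeR, adjusted p = 3.01e-09), and its fold change is not given because each member value stands for a few UMIs. Mmp12 (macrophage elastase), Cxcl3 (an attractant of neutrophils), Slc9b2 (a sodium and proton exchanger) and Dgki (a diacylglycerol kinase) were lower, with log2 fold changes of -5.17, -5.50, -4.26 and -3.85. The median depth of Acp5 and Clec5a cells was 17004, 12458, 14848 and 13358 UMIs, above that of members in each library.

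Against Ear2, Plac8 and Ly6c2 cells, 16 of 22 lipid-handling, 15 of 18 lysosomal and 7 of 11 iron and haem genes were higher in members, and 13 of 16 monocyte-programme and 8 of 14 interferon-stimulated genes lower. Here too, genes expressed together with the markers that drew the classes, such as those of the monocyte programme, were free to follow them. Of 12368 genes, 2430 were higher (19.6%) and 2418 lower (19.6%). These were 1305 and 1091 without the 17 dpa library, 1366 and 1234 without the unamputated library, and 1163 and 1065 in a fit of the 2 classes alone. Leaving out 1 library gave 15 to 16 lipid, 13 to 15 lysosomal and 6 to 7 iron genes higher, and 12 to 13 monocyte and 6 to 8 interferon genes lower. Pf4, a chemokine of platelets and resident macrophages, was at 771, 853, 1243 and 1905 CPM in members and 8.37, 0, 6.91 and 109 CPM in the other class (log2 fold change 6.02 ± 0.61, edgeR, adjusted p = 5.02e-06). Fxyd2, a regulator of the sodium pump, was at 316, 326, 1049 and 2435 CPM against 4.04, 0, 21.7 and 29.7 CPM (5.86 ± 0.68, adjusted p = 1.43e-05). C1qc, C1qa, Atp6v0d2 and Gpr34 rose by log2 fold changes of 4.87 to 5.56.

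The lipid-handling list had a median log2 fold change of 1.77 against -0.02 over all genes. Apoe was at 9173, 14295, 8762 and 6677 CPM against 307, 2658, 509 and 1433 CPM, and Trem2 at 662, 792, 844 and 895 CPM against 26.97, 87.1, 16.1 and 82.6 CPM. The iron and haem genes that were higher included Hmox1, the enzyme that opens the haem ring, at 417, 421, 231 and 106 CPM against 62.6, 114, 58.1 and 49.5 CPM. The monocyte-programme list had a median of -2.86, with S100a4, a calcium-binding protein, called higher in members, and the interferon-stimulated list a median of -1.26.

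The Ear2, Plac8 and Ly6c2 class was not a uniform monocyte class. The named genes with the lowest fold changes were Abca13, Prtn3 (proteinase 3 of granules), Cd177 (a neutrophil surface protein), Mmp8 (neutrophil collagenase), Ear1 (whose reads are shared with near-identical ribonuclease genes) and Ifitm6. Prtn3 was at 168, 3.79, 474 and 3.30 CPM in that class and Mmp8 at 417, 22.7, 439.6 and 19.8 CPM, so both were high in the unamputated and 17 dpa libraries and low in the other 2. These 4 libraries contributed 633, 40, 247 and 45 cells to the class.

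**Figure D3:**
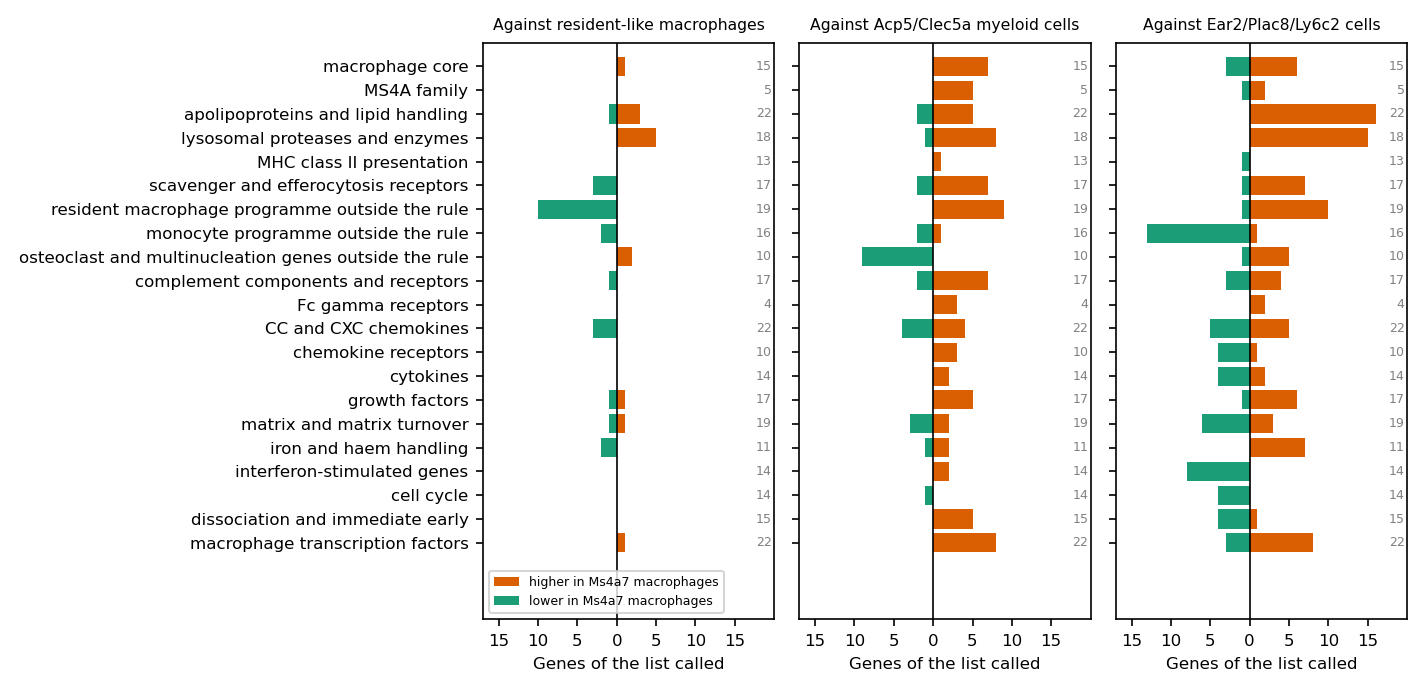
Number of genes called higher (right of 0) or lower (left of 0) in members for each of 21 gene lists, in the comparisons with resident-like macrophages, Acp5 and Clec5a cells, and Ear2, Plac8 and Ly6c2 cells. The grey number is the count of list genes tested. The longest bars are 10 resident-programme genes lower (left panel), 9 osteoclast genes lower and 9 resident-programme genes higher (middle panel), and 16 lipid genes higher (right panel).

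Members were then described by library. Each amputated library is set against the same unamputated library, so the 3 comparisons share it, and no test was possible with 1 library a group. A gene counts as past the fold when it differed at least 2-fold with at least 50 CPM in the higher library, and log2 ratios carry a pseudocount of 1 CPM. At 28 dpa 116 of 3861 genes were higher (3.0%) and 140 lower (3.63%), at 17 dpa 26 of 3791 were higher (0.686%) and 32 lower (0.844%), and at 12 dpa 26 of 3753 were higher (0.693%) and 36 lower (0.959%). The median log2 ratio of all these genes was -0.12, -0.05 and -0.26 in the same order, so log2 ratios at 12 dpa stand against a general shift. TMM factors brought that shift to -0.10, and with them 48 genes were higher and 19 lower at 12 dpa. Thinning each cell to 2000 UMIs gave 219 genes lower at 28 dpa and 106 at 12 dpa. Without barcodes marked as doublets, 74, 15 and 13 genes were higher in the 28, 17 and 12 dpa libraries.

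At 28 dpa, members had less MHC class II, less of the chemokine receptor Ccr2 and less Hmox1. H2-Aa, the alpha chain of the class II molecule I-A, was at 1122, 958, 796 and 353 CPM, a log2 ratio of -1.66 at 28 dpa (exact 95% counting interval -1.76 to -1.58, on the ratio without pseudocount, as below). The invariant chain Cd74 was at 2293, 2873, 2057 and 952 CPM (-1.27, -1.32 to -1.21) and the beta chain H2-Ab1 at 1152, 1479, 1028 and 461 CPM (-1.32, -1.40 to -1.24). Of 6 class II list genes that reached 50 CPM, 4 were past the fold downwards (with H2-DMb1), where 3.63% of all genes were, and the median log2 ratio was -1.17.

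The 28 dpa library stood below the other 3 in H2-Aa, Cd74 and H2-Ab1. In resident-like macrophages H2-Aa was at 952, 514, 269.9 and 64.6 CPM, a log2 ratio of -3.86, and the difference between the 2 classes in this ratio was not tested. Leaving out barcodes marked as doublets gave -2.01 for H2-Aa in members. Cells without myeloid UMIs held 35.9, 33.3, 34.0 and 12.96 CPM, also lowest at 28 dpa (log2 ratio -1.40), and the part this played in members was not tested.

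Ccr2, the receptor for Ccl2 that brings monocytes out of bone marrow, was at 122, 80.5, 102 and 27.1 CPM in members, a log2 ratio of -2.13 (-2.51 to -1.85) at 28 dpa. The ratio was -3.48 in resident-like macrophages and -1.96 in cells without myeloid UMIs, so Ccr2 was lower at 28 dpa outside the members as well. The fractalkine receptor Cx3cr1 was at 165, 113, 182 and 132 CPM and did not pass the fold. Hmox1 was at 417, 421, 231 and 106 CPM (-1.96, -2.14 to -1.81, and -0.55 in resident-like macrophages), with the first 2 libraries alike and the later 2 lower in turn.

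Other genes that were lower at 28 dpa covered receptors, enzymes and regulators. Fcgr1, the high-affinity IgG receptor, was at 54.7, 69.98, 42.7 and 19.8 CPM, Abca1, which exports cholesterol, at 784, 576, 529 and 356 CPM and Vegfa, a growth factor for vessels, at 121, 113, 69.4 and 41.6 CPM. Runx3, a transcription factor, was at 57.04, 58.3, 32.5 and 14.9 CPM, Ptgs2, the inducible cyclooxygenase, at 51.6, 34.9, 19.7 and 12.2 CPM and Ctsc, cathepsin C, at 895, 710.5, 734 and 436 CPM. Each of these had its lowest value at 28 dpa. Larger differences were seen for the transporter gene Abcg3, at 79.1, 65.7, 46.8 and 11.6 CPM (-2.67), and the ubiquitin ligase gene Rnf149, at 126, 68.4, 58.99 and 26.1 CPM (-2.22). Resident-like macrophages were also lower at 28 dpa, with log2 ratios of -0.74 for Fcgr1, -1.20 for Abca1, -3.30 for Vegfa, -3.04 for Runx3, -4.19 for Ptgs2, -0.96 for Ctsc, -1.82 for Abcg3 and -2.78 for Rnf149, and the differences between the classes were not tested.

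Genes that were higher at 28 dpa included genes called lower in members than in resident-like macrophages, among them Ltc4s, Ccl24, Ccl6, Rasgrp3 and Cd36, and also Pf4. Ltc4s was at 21.4, 18.6, 47.6 and 93.5 CPM in members (log2 ratio 2.08), Ccl24 at 7.11, 5.54, 27.1 and 50.9 CPM (2.68) and Rasgrp3 at 10.3, 5.66, 30.1 and 64.5 CPM (2.54). Ccl6 was at 67.4, 70.3, 110.3 and 189 CPM (1.47), Cd36 at 294, 162, 415 and 836 CPM (1.50) and Pf4 at 771, 853, 1243 and 1905 CPM (1.30). For all 6 genes the unamputated and 12 dpa values were the lowest pair and the 28 dpa value was the highest. In resident-like macrophages of the 28 dpa library they were at 355, 266, 138, 693, 1265 and 3503 CPM, above the members for each gene. The resident sum, which the rule keeps below the marker sum in members, was at 235, 195, 324 and 307 CPM in them.

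Fxyd2 was among the largest increases, at 316, 326, 1049 and 2435 CPM in members (2.94, 2.895 to 3.001) and 173, 205, 699 and 3083 CPM in resident-like macrophages. The gene was also found in cells without myeloid UMIs, at 3.91, 4.33, 12.4 and 32.6 CPM. Fxyd2 was found unthinned in 56.2%, 44.6%, 74.5% and 89.1% of members. After thinning, 24.2%, 21.5%, 49.3% and 78.8% of members held an Fxyd2 UMI, against 0.227%, 0 of 415, 0.943% and 3.31% of keratin-high cells. Alox5, the 5-lipoxygenase that opens the leukotriene pathway, was at 43.8, 27.1, 99.1 and 138 CPM and Tppp3, a tubulin-binding protein, at 166, 146, 452 and 697 CPM. Lyz1, at 199, 92.1, 395 and 1247 CPM, is a near copy of Lyz2 and its reads are uncertain. Lyz1, Alox5 and Tppp3 were picked after their values were seen.

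Part of the increase at 28 dpa lay in genes that were more abundant outside the myeloid cells. Aqp1, a water channel, was at 23.1, 30.7, 137 and 503 CPM in members and 221, 242, 388 and 578 CPM in cells without myeloid UMIs, and Igfbp6, Tnxb, Prelp and Comp, genes of connective tissue cells, were higher in both as well. Counting only genes at least as high in members as in cells without myeloid UMIs, a restriction chosen after seeing the data, left 31 higher (1.40% of 2222) and 124 lower (5.58%) at 28 dpa. The same restriction left 5 higher (0.218% of 2297) and 18 lower (0.784%) at 17 dpa, and 2 higher (0.0905% of 2210) and 19 lower (0.860%) at 12 dpa.

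**Figure D4:**
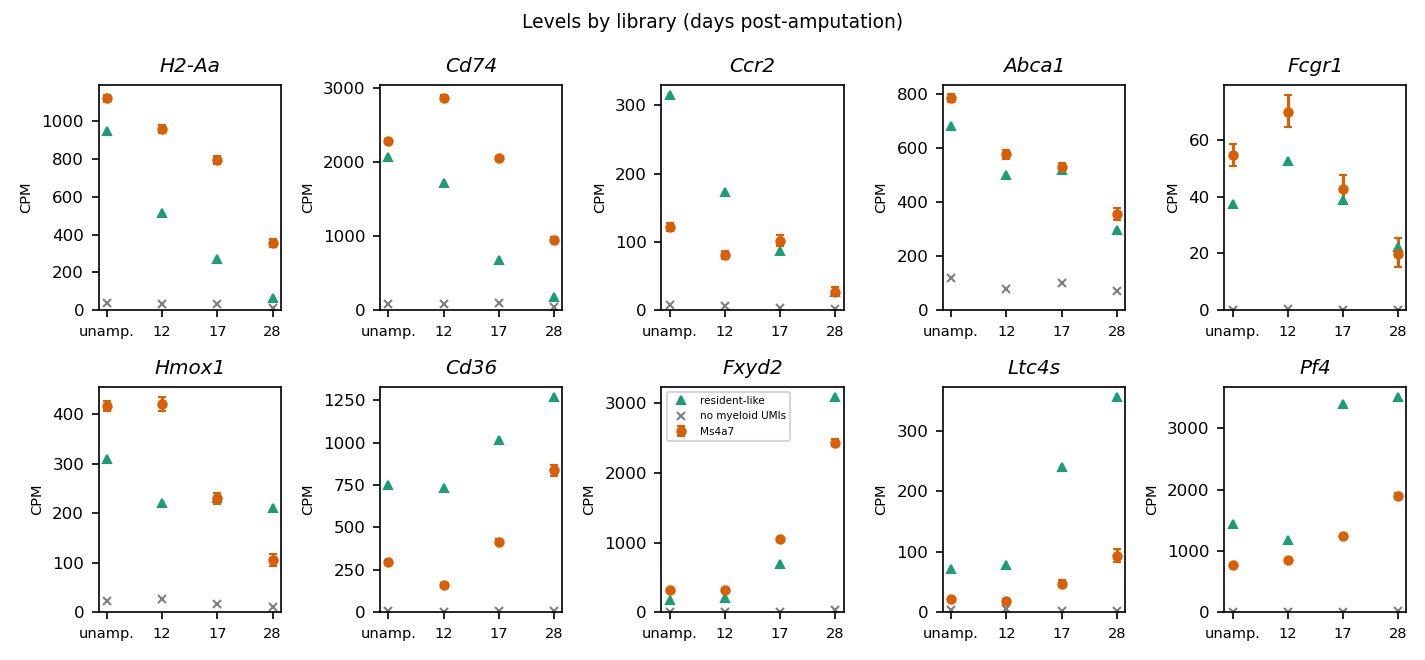
Level of 10 genes by library in members (circles, with exact Poisson 95% intervals), resident-like macrophages (triangles) and cells without myeloid UMIs (crosses), in CPM on a linear axis from 0. H2-Aa, Cd74, Ccr2, Abca1, Fcgr1 and Hmox1 are lowest in members at 28 dpa, and Cd36, Fxyd2, Ltc4s and Pf4 are highest there.

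At 17 dpa, Ccl8 had the highest log2 ratio of the genes named. This chemokine for monocytes was at 4.79, 5.89, 89.9 and 19.2 CPM, a log2 ratio of 3.97 at 17 dpa, and at 41.1, 11.7, 119 and 28.99 CPM in resident-like macrophages. Cells without myeloid UMIs held 3.71, 11.3, 18.5 and 16.96 CPM. Among the lower genes were Ptgs2, Hspa1b, a heat shock gene that can rise with cell dissociation, at 661, 446, 312 and 358 CPM, and Ubb, which encodes ubiquitin, at 813, 459, 314 and 448 CPM. Ubb was lower in cells without myeloid UMIs too, at 696, 389, 306 and 448 CPM. Egr1, an immediate early gene, was at 59.6, 53.5, 123 and 99.8 CPM. Of 15 dissociation and immediate early genes, Egr1 was past the fold upwards and Hspa1b downwards at 17 dpa, and none at 12 or 28 dpa, where over all genes 0.686% were higher and 0.844% lower at 17 dpa, so for 15 genes these counts say little.

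At 12 dpa, among 2210 genes at least as abundant in members as in cells without myeloid UMIs, 2 were past the fold upwards (0.0905%) and 19 downwards (0.860%), against 5 and 18 of 2297 at 17 dpa. The 2 higher genes were Lst1, a leukocyte-specific transcript, at 181, 374, 136 and 64.8 CPM, and Polr2l, a subunit of RNA polymerases, at 42.6, 89.95, 36.5 and 32.4 CPM, and both were picked after their values were seen. The lower genes included Arhgap15, a GTPase-activating protein, at 285, 114, 236 and 167 CPM, Psd3, a guanine nucleotide exchange factor, at 275, 107, 339 and 338 CPM, and Ibsp, the bone sialoprotein, at 236, 0.924, 205 and 177 CPM, and these were also picked after their values were seen. At least 10 UMIs of the 5 osteoblast and cartilage markers, which include Ibsp, were held by 7 members of the unamputated library. At 12 dpa 3 members held them. The part of these few barcodes in the Ibsp values was not tested. Arhgap15 was lower in cells without myeloid UMIs too, with a log2 ratio of -2.01 where members had -1.31. The other increases included the matrix genes Fmod, Mfap5, Col11a1 and Bgn, and their log2 ratios in cells without myeloid UMIs were 1.45, 1.17, 1.00 and 1.07 where members had 2.45, 1.55, 1.52 and 1.38. Cdk8, at 299, 1285, 694 and 331 CPM in members, was at 404, 1374, 853 and 425 CPM in cells without myeloid UMIs. None of 15 macrophage core genes, 17 lysosomal genes, 6 class II genes or 9 chemokines was past the fold at 12 dpa, and with 0.693% of all genes higher and 0.959% lower these counts do not set the lists apart.

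Spp1, osteopontin, was the lipid-list gene past the fold at 12 dpa, at 732, 114, 595 and 321 CPM (-2.67). It was at 621, 65.6, 1895 and 1564 CPM in cells without myeloid UMIs, low in the same library. Leaving out barcodes marked as doublets changed its log2 ratio in members to -0.23 at 12 dpa, and at 28 dpa from -1.19 to -0.06. The neutrophil genes S100a8 and S100a9 were at 297, 43.9, 313 and 16.9 CPM and 288, 7.85, 385 and 1.32 CPM, and the bone matrix gene Ibsp at 236, 0.924, 205 and 177 CPM. Neutrophil markers as a list, 6 genes, summed to 674, 77.8, 783 and 26.8 CPM in members, and Retnlg, Cxcr2 and Ngp were at 0 at 28 dpa.

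Apoe and class II genes were among the genes that differed between members in every library. By the lowest per-cell Fano factor over the libraries (variance over mean of UMIs, each cell thinned to 2000), Apoe ranked first of 2832 genes, with values of 26.1, 38.9, 37.9 and 41.6, and Cd74 at rank 3, with 19.6, 23.1, 21.0 and 20.2. Col1a1 stood between them at rank 2, a collagen gene that was more abundant in cells without myeloid UMIs. H2-Ab1 and H2-Aa were at ranks 11 and 13. In single libraries other genes stood above Apoe, such as Spp1, which encodes osteopontin, with 98.3 in the unamputated library and 113 at 17 dpa but 2.93 and 10.8 at 12 and 28 dpa. Fabp5, Ctsl and Ctsk were also among the 18 most variable genes by their lowest value over the libraries. Class II transcripts were unevenly spread: 44.1%, 39.7%, 45.5% and 70.6% of members had none after thinning, whereas the 90th percentile was 39, 51, 36 and 13 UMIs. The highest member held 135, 175, 159 and 77.

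H2-Aa alone was detected in 39.6%, 39.4%, 33.8% and 14.97% of thinned members, against 28.0%, 29.7%, 15.1% and 4.33% of resident-like macrophages and 0.482% to 0.943% of keratin-high cells. Cd163 was detected in 0.796%, 0 of 851, 1.31% and 1.98% of thinned members and in 6.23%, 0 of 37, 15.1% and 7.61% of resident-like macrophages. At that depth the 0 of 851 allows up to 0.353% of cells with a Cd163 UMI and the 0 of 37 up to 8.11%, which limits cells with a UMI after thinning and not cells that express the gene. Unthinned shares of Cd163 were 2.46%, 0.468%, 5.36% and 7.24% of members. The share of members with H2-Aa was lower at 28 dpa, beyond the counting intervals (11.4 to 19.1 where the unamputated library had 36.8 to 42.6), as was its level. Unthinned shares of H2-Aa were 53.3%, 53.8%, 49.4% and 21.7%.

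Transcripts of Mki67 or Top2a, genes of dividing cells, were found in 6.55% (5.18 to 8.15), 6.23% (4.70 to 8.07), 9.62% (7.52 to 12.1) and 8.47% (5.79 to 11.9) of thinned members. The intervals overlapped among all 4 libraries. Resident-like macrophages held them in 10.5%, 2.70%, 17.1% and 11.3% and keratin-high cells in 22.9% to 29.1%, so no class of cells here lacks these genes and their background level is unknown. Unthinned shares of members were 21.2%, 19.9%, 22.0% and 15.6%.

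Markers of other cell types were present in members and differed between libraries. The 6 fibroblast markers summed to 3115, 4837, 5307 and 4426 CPM in members, where cells without myeloid UMIs held 24640, 34833, 36325 and 22362 CPM, and all 6 were detected in each library. The 6 keratinocyte markers summed to 770, 455, 330 and 1470 CPM, and Lor was at 0 in the unamputated, 12 and 28 dpa libraries. Markers of osteoblasts and cartilage were at 261, 19.6, 229 and 314 CPM. The part that these and the neutrophil markers had in the differences between libraries was not tested, and in summed counts a change in the share of such barcodes and one in RNA per barcode cannot be told apart. By barcode, at least 10 UMIs of the fibroblast markers were held by 4.65% of members in the unamputated library. The share was 18.2% at 12 dpa and 12.5% at 17 dpa, at unequal depth.

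**Figure D5:**
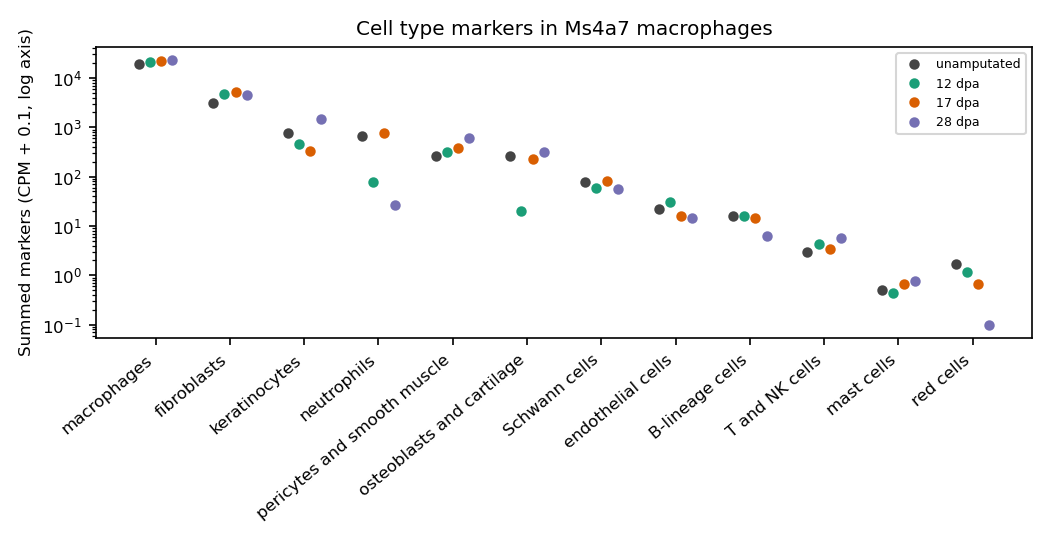
Summed CPM of marker lists in Ms4a7 macrophages by library, on a log axis with 0.1 added. Macrophage markers, which include the rule genes Csf1r, Lyz2 and C1qb, lie between 19114 and 22957 CPM in all 4 libraries, fibroblast markers between 3115 and 5307, and neutrophil markers range from 26.8 to 783.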

How the data were processed

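The deposited values were whole-number UMI counts per gene and cell barcode, made by the authors with Cell Ranger 7.1.0 and genome build mm10, per the submitters' processing notes. All 32285 genes in the files were read, of which 32235 IDs matched GENCODE M21, and promoters came from RefSeq. The members and gene lists were chosen with earlier results of these data known. CPM are UMIs of a gene scaled to 1000000 UMIs of a class and library. Classes were compared with edgeR 4.0.16 in R 4.3.3 (glmQLFit and glmQLFTest, TMM, filterByExpr, Benjamini-Hochberg) on sums of at least 20 cells for 5 classes in 4 libraries, with the library as a block, and the 21 rule genes and mitochondrial genes were left out of calls. The samples of that test are 4 libraries of pooled animals at different times. Its p-values rest on the spread left within libraries once the block is taken out, and not on the spread between libraries. That spread was estimated over all 5 classes together. Libraries were compared by values and counting intervals alone.

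On simulated data for the comparison with resident-like macrophages, 50.0% of 86 genes changed 2-fold and 90.7% of 108 genes changed 4-fold were recovered, with 6 of 11867 unchanged genes called. Doublets were marked by Scrublet in scanpy 1.11.5 at 0.8% per 1000 barcodes and kept. Named genes were, against resident-like macrophages, the 10 highest and 10 lowest log2 fold changes among genes called, alike in direction in every library and at 50 CPM or more in the higher class, 6 and 6 against the other classes, and 8 and 8 per library comparison among genes past the fold. Rule genes, markers of other types, sex-linked genes and genes under 0.1 of their level in cells without myeloid UMIs were left out. Members of the lists at a mean of 50 CPM or more in these cells could be named too, and those under it (Vsig4, Timd4, Nr1h3) were named after their values were seen. Alternatives covered cell filters, doublets, the marker minimum, depth, normalization, DESeq2 1.42.0, the block, the classes fitted, low-value filters, pseudocounts and each library left out. Intervals and limits for counts of 0 (3 counts) cover counting error only. A few genes that met the rule are not reported here.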

Additional observations from a re-analysis of the deposited data

Results flagged for a closer look

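For 3 genes, members and resident-like macrophages differed in opposite directions in different libraries, and these differences between libraries were not tested. Cxcl1, a chemokine for neutrophils, had a log2 ratio of members over resident-like macrophages of -1.55 in the unamputated, 1.66 in the 12 dpa and -1.31 in the 17 dpa library. Spp1 had ratios of 2.38 in the unamputated and 3.72 in the 17 dpa library, and -1.08 at 28 dpa. It was unevenly spread between members of the unamputated and 17 dpa libraries, with Fano factors of 98.3 and 113. Its ratios to the unamputated library at 12 and 28 dpa changed when barcodes marked as doublets were left out, as given above. Stmn1, a tubulin-binding gene of dividing cells, had 2.91 at 12 dpa and -1.22 at 17 dpa. The resident-like side of the 12 dpa values rests on 37 cells. Xist, outside the genes compared, was at 392 CPM in the members of the 12 dpa library, against 0.137 CPM in those of the unamputated library.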

How the results depend on the processing

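A marker minimum of 2 kept the counts within 1.5 times and the shares within their intervals. The RLE size factors and dropping the low-count filter kept the 6 counts between classes within 1.5 times, and pseudocounts of 0.1 and 5 CPM and mean CPM per cell the 6 counts between libraries. Against resident-like macrophages, DESeq2 called 274 genes higher and 211 lower, the fit without the library block 14 and 15, the stricter cell filter 62 higher, and the fit of the 2 classes alone 200 lower. Leaving out 1 library gave 3 to 49 higher and 6 to 83 lower, and 17 of the 20 named genes lost their call in at least 1 of these fits (Cadm1, Ccl6 and Dnm1 kept theirs). Against Acp5 and Clec5a cells, DESeq2 called 1477 lower, the fit without the block 434 higher and 345 lower, the 2 classes alone 1924 and 2018, and leaving out 1 library 418 to 768 and 317 to 713. Against Ear2, Plac8 and Ly6c2 cells, the 2 classes alone gave 1163 and 1065, and leaving out 1 library 1305 to 2544 and 1091 to 2424. The labels give no replicate numbers, and classes were paired by library, which is the block here.

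At 12 dpa, removing doublets left 13 genes higher, no minimum level gave 200 higher and 239 lower, a minimum of 200 CPM 6 and 12, TMM factors 48 and 19, thinning 106 lower, and the restriction to genes of myeloid level 2 and 19. At 17 dpa these were 15 higher without doublets, 321 and 248, 4 and 11, and 5 and 18 under the restriction. At 28 dpa they were 74 higher without doublets, 732 and 727, 34 and 40, 219 lower after thinning, and 31 higher under the restriction. Without doublets the log2 ratios of Mmp13 (0.012), Krt2 (0.38) and Perp (0.37) at 12 dpa and of Igfbp6 (-0.050), Krt2 (0.032) and Mmp13 (0.32) at 17 dpa changed sign, and the ratios of 11 of 16 named genes at 12 dpa, 10 of 20 at 17 dpa and 22 of 47 at 28 dpa left their counting intervals without a change of sign. After thinning 12, 13 and 26 of these genes did so. The cause was not tested beyond that removal. The causes of the other shifts were not tested either.

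Shares of myeloid cells under the stricter cell filter were 32.6%, 63.4%, 32.5% and 12.9%, and of all filtered cells 11.1%, 16.6%, 9.36% and 3.94%. The looser filter gave 8.99% and 10.9% of all filtered cells in the unamputated and 12 dpa libraries, and a marker minimum of 5 gave 10.3% of myeloid and 2.59% of all cells at 28 dpa. Thinning gave 28.0%, 54.6%, 24.6% and 8.35% of myeloid and 6.64%, 9.97%, 5.68% and 1.86% of all cells. A sum of at least 3 whatever the others, like the restriction to genes of myeloid level chosen after seeing the data, gave 45.2%, 69.3%, 54.2% and 42.0%, and 12.4%, 14.1%, 14.0% and 10.5%. The 12 dpa share was the highest and the 28 dpa share the lowest under each setting, but under the last not always beyond counting error. There the intervals of the 28 dpa and unamputated libraries overlapped for myeloid cells, though not for all cells. Those of the 12 and 17 dpa libraries overlapped for all cells, though not for myeloid cells. The 17 dpa share was above the unamputated one under that setting, by intervals that did not overlap. Depth limits what the 359 members of the 28 dpa library can show, at a median of 6819 UMIs.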
